A study of Macaca mulatta with 11 samples.

Results

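Partly methylated CpG positions that lie in CpG-poor DNA and far from CpG islands numbered 114921, which was 3.69% of the 3115109 positions measured in rhesus macaque prefrontal cortex. They were chosen by 3 criteria. A member had fewer than 10 measured positions within 250 bp on either side, itself included. No position with 40 or more such neighbours lay within 4000 bp of it. Its pooled methylation level, the methylated reads of all animals as a percentage of all reads, lay from 20% up to 60%. The first 2 criteria alone held for 710578 positions, of which the members were 16.2%. The pooled level chose the members, so that level is given as a description and supports nothing. Density was counted over captured positions, so a CpG-rich stretch that the capture missed would not be seen.

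DNA methylation in mammals sits mainly on the cytosine of CpG dinucleotides and is copied to the new strand at each cell division. Most CpGs outside islands are methylated in adult tissue, whereas islands at promoters are mostly free of it. Short stretches of reduced methylation in CpG-poor DNA are known from other mammals, where many are enhancers bound by transcription factors, and which of them are reduced differs between cell types. Cortex mixes neurons with several kinds of glia, and each cell carries 2 alleles. A partial level in such tissue can come from a mixture of cells, from a difference between alleles or from a sequence variant at the CpG, and these counts cannot tell them apart.

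The tissue was prefrontal cortex area 46, labelled as never exposed to ethanol, from 11 animals. Cohort 10 gave 2 animals, aged 5.02 and 5.08, and cohort 14 gave 9, aged 5.18 to 5.44. Each label carries a 6 month ethanol value, called the intake value here, of 2.11 and 3.19 in cohort 10 and of 1.69 to 4.31 in cohort 14, with no unit stated for age or intake. Animals are numbered within their cohort. All animals belong to a single untreated state, so the study's question is whether methylation before drinking goes with the later value. Counts summed over all positions ran from 479979855 to 934657900 per library, with a read counted at each CpG it covers. The median depth at a member ran from 104 reads in animal 1 of cohort 10 to 223 in animal 5 of cohort 14. No sequences are shown, since no genome of the files' build was used here, and genes near the members were not analysed for the same reason.

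The members were spread over the genome with little preference for a place. They made up 14.6% to 18.97% of the CpG-poor positions far from islands on each of 20 chromosomes, lowest on chromosome 10 and highest on chromosome 19, followed by chromosome 16 with 18.3% and chromosome 20 with 18.0%. The share rose from 13.2% at positions with no other measured position within 250 bp to 17.6% at a density of 7, and was 17.3% at a density of 9. Distance from the nearest dense position mattered little: the share was 16.9% at 4000 to 8000 bp, 15.6% at 20000 to 50000 bp and 16.6% beyond 100000 bp. Chromosomes and distance classes were not tested against each other.

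Within the chosen band the levels were not evenly filled. Positions at 20% to 30% numbered 17402, those at 30% to 40% 22514, those at 40% to 50% 30934 and those at 50% to 60% 44071. The limits cut a continuous range: 1487 CpG-poor positions lay from 19% to 20% and 1586 from 20% to 21%, while 5003 lay from 59% to 60% and 5314 from 60% to 61%. Most CpG-poor positions far from islands, 557181, were at 60% or more, and 38476 were under 20%. Median depth was similar in the 3 classes, with 148 reads per animal at the members, 137 at the higher positions and 146 at the lower.

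Positions near a member were often partly methylated too, and less often with growing distance. Of the CpG-poor neighbours 2 to 50 bp from a member, 56.6% were themselves at 20% up to 60%, against 16.2% of all such positions. The share was 50.2% over 50 and up to 100 bp away. Each further class likewise leaves out its lower limit, with 43.5% at 100 to 300 bp, 32.8% at 300 to 500 bp and 26.9% at 500 to 1000 bp. At 2000 to 5000 bp it was 20.7%, still above the general share. Neighbours at 60% or more rose over the same distances from 36.8% to 71.4%, while those under 20% stayed between 6.64% and 11.1%. The median difference in pooled level between a member and its neighbour grew from 12.4 points at 2 to 50 bp to 34.5 points at 2000 to 5000 bp. Neighbour levels were not limited by the rule, and the comparison is a description without a test.

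Few members lay directly between a position under 20% and a position at 60% or more. Among 60674 members with a CpG-poor neighbour within 250 bp on each side, 36.6% lay between 2 members and 24.6% between 2 positions at 60% or more. A further 26.5% had a member on 1 side and a position at 60% or more on the other. Another 8.14% had a member on 1 side and a position under 20% on the other. Only 2.16% lay between a position under 20% and a position at 60% or more, and 1.91% between 2 positions under 20%. Positions under 20% were few among all CpG-poor positions far from islands, 38476 of 710578. Low shares are thus partly given by the choice of positions. Only the nearest position on each side was examined, so a step spread over several members would be missed.

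Members next to each other were joined to runs, in which no other measured position lay between them and each was at most 500 bp from the next. The 114921 members formed 69011 runs. A single member made up 46416 runs, which held 40.4% of the members, and in 2413 of these no other measured position lay within 500 bp. Runs of at least 5 members numbered 3117, with a median span of 220 bp and a range from 9 to 1820 bp. Around these runs the median level rose with distance, though not at each step, and single runs were not followed. The first position outside the run was left out. It is a non-member by construction unless a gap over 500 bp ended the run. The median level of CpG-poor positions was 53.6% within 100 bp of the run's edge and 66.0% at 400 to 700 bp. It was 64.5% at 700 to 1000 bp and 75.6% at 1500 to 2000 bp. Within 100 bp, 49.6% of these positions were still at 20% up to 60%.

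The longest run lay on chromosome 2 from 43516958 to 43518777 and held 24 members over 1820 bp. Its level over all reads was lowest at 31.2% in animal 3 of cohort 14, had a median of 37.4% and was highest at 43.8% in animal 8 of cohort 14, with 38.4% ± 4.0 (SD, n = 11). Averaged over the run, every animal was thus partly methylated there, and no animal stood far from the rest. Single CpGs inside it differed more than the animals did. The pooled level was 23.5% at position 43517603 and 50.99% at position 43518389. At single CpGs the animals could lie further apart, from 2.57% to 44.2% at position 43517072. They ran from 6.45% to 83.3% at position 43518777, which had a mean depth of 37.2 reads. The other 9 of the 10 longest runs held 14 to 17 members over 811 to 1414 bp, with mean levels from 37.6% to 51.02% and SDs from 3.4 to 7.2 points. A run of 17 members on chromosome 7 from 13530592 to 13531721 ranged from 37.8% to 50.1%, and a run of 16 on chromosome 11 from 18035171 to 18036527 from 31.0% to 40.4%. Animal 6 of cohort 14 was the lowest animal in 5 of the 10 longest runs and the highest in 3.

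**Figure D1:**
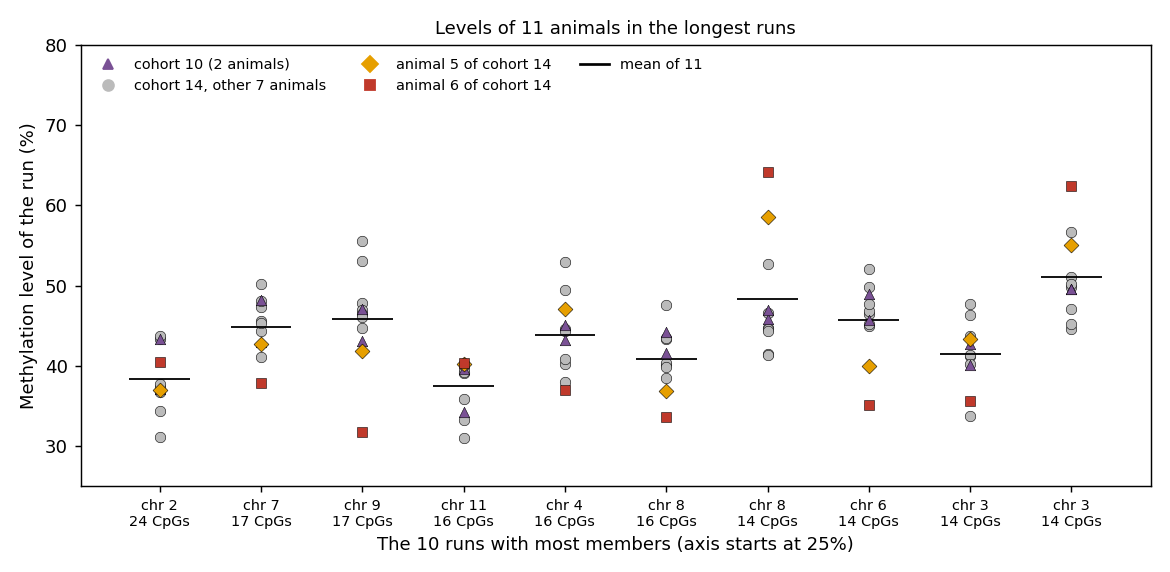
Methylation level (%) of each of 11 animals in the 10 runs with most members, labelled by chromosome and number of CpGs; points are animals, the black bar is their mean and the axis starts at 25%. In the run of 14 members on chromosome 8, animals 5 and 6 of cohort 14 lie at 58.5% and 64.1%, above the 41.3% to 52.7% of the other animals.

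Neighbouring members also deviated together from animal to animal. At each member the mean of the 11 animals was taken from each animal's level, and these deviations were correlated over pairs of members. The correlation was 0.463 over 40017 pairs 2 to 50 bp apart, 0.316 over 28698 pairs at 50 to 100 bp and 0.179 over 49884 pairs at 100 to 300 bp. It was 0.106 over 17605 pairs at 300 to 500 bp, 0.0838 over 23616 pairs at 500 to 1000 bp and 0.0471 over 53611 pairs at 2000 to 5000 bp. Pairs share the same libraries, and close pairs can share reads. The part of shared reads in the agreement was not tested. At CpG-poor positions of 60% or more the values were lower in each distance class, with 0.208 at 2 to 50 bp and 0.0214 at 500 to 1000 bp. At positions of density 20 or more in the same band of 20% up to 60% the values were higher in each distance class, with 0.577 at 2 to 50 bp, 0.675 at 500 to 1000 bp and 0.254 at 2000 to 5000 bp. They did not fall steadily with distance there, with 0.476 at 100 to 300 bp and 0.727 at 1000 to 2000 bp. The members thus lay between these sets of positions, and the differences were not tested.

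**Figure D2:**
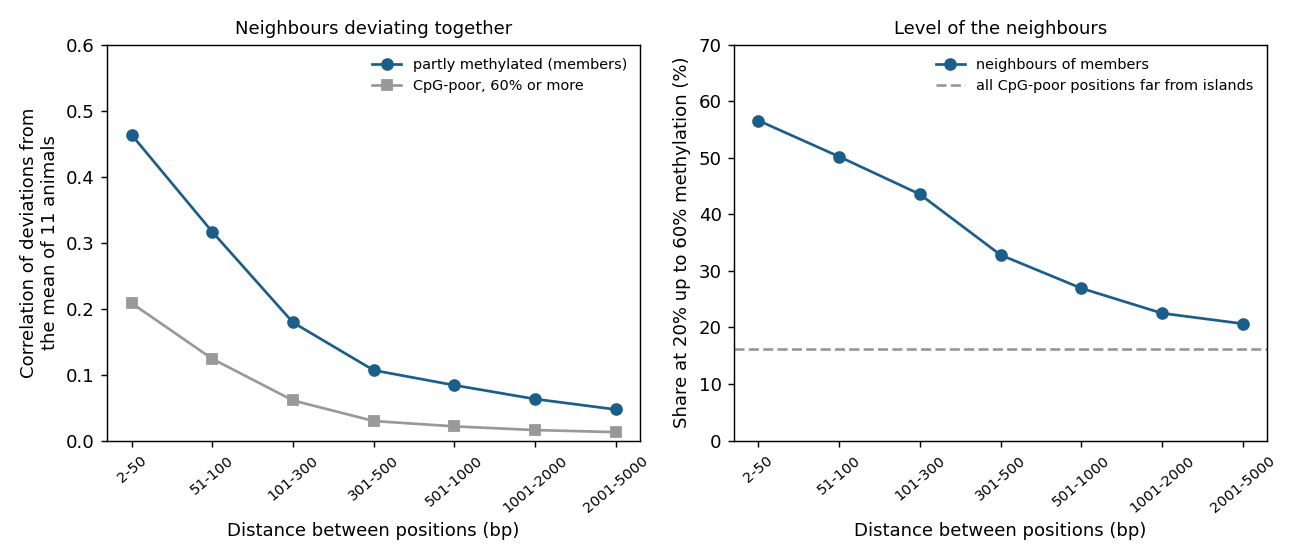
Left, correlation of the animals' deviations (vertical axis, no unit) between pairs of members and between pairs of CpG-poor positions at 60% or more, by distance in bp; right, share (%) of the CpG-poor neighbours of members that lie at 20% up to 60%, with the share over all CpG-poor positions far from islands as a dashed line. Both curves fall with distance, from 0.463 to 0.0471 for the deviations and from 56.6% to 20.7% for the levels, which end above the dashed line at 16.2%.

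In each library the correlation fell over each step from 2 to 50 bp out to 300 to 500 bp, and beyond that some libraries varied without order. At 2 to 50 bp the correlation ran from 0.416 in animal 1 of cohort 10 to 0.568 in animal 6 of cohort 14, and at 500 to 1000 bp from 0.0461 in animal 4 to 0.157 in animal 6 of cohort 14. For members with every animal between 20% and 80% the correlation was 0.548 over 15127 pairs at 2 to 50 bp and 0.125 over 7342 pairs at 500 to 1000 bp, above that of all members. It was slightly below it at 2000 to 5000 bp, with 0.0448 over 14119 pairs, and below it for 84 pairs of adjacent bases, with 0.218 against 0.533. Among the members were 348 places where 2 adjacent bases were both listed, as the strands of 1 CpG would be. Their median difference in pooled level was 4.74 points, against 7.04 points between members 2 to 50 bp apart.

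Animals differed at a single member by more than their reads would give. The SD between the 11 animals had a median of 11.9 points, with quartiles of 8.38 and 17.7, whereas binomial sampling of the counted reads gives a median of 4.17 points. The variance between animals was a median of 7.23 times the sampling variance and exceeded it at 99.9% of the members. Read sampling made up 10.3% of the summed variance. The spread equalled that of a median of 16.6 independent reads, at a median depth of 148. The counts do not tell PCR copies from independent molecules, so the sampling figures cover counting error only and may be too small.

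The excess over read sampling was present in each class of depth. At members under 75 reads per animal the median SD was 18.1 points against 7.48 from sampling. At members with 300 reads or more it was 7.43 points against 2.43, so the ratio of the variances was higher, 9.71 against 5.61. The equivalent number of independent reads rose from 7.17 to 42.5 between these classes. For comparison, the median SD was 6.59 points at CpG-poor positions of 60% or more, with a variance ratio of 5.16. It was 9.87 points, with a ratio of 6.83, at positions of density 20 or more in the same band of 20% up to 60%. These positions were also deeper, with a median of 181 reads per animal, and no test of these differences was made.

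**Figure D3:**
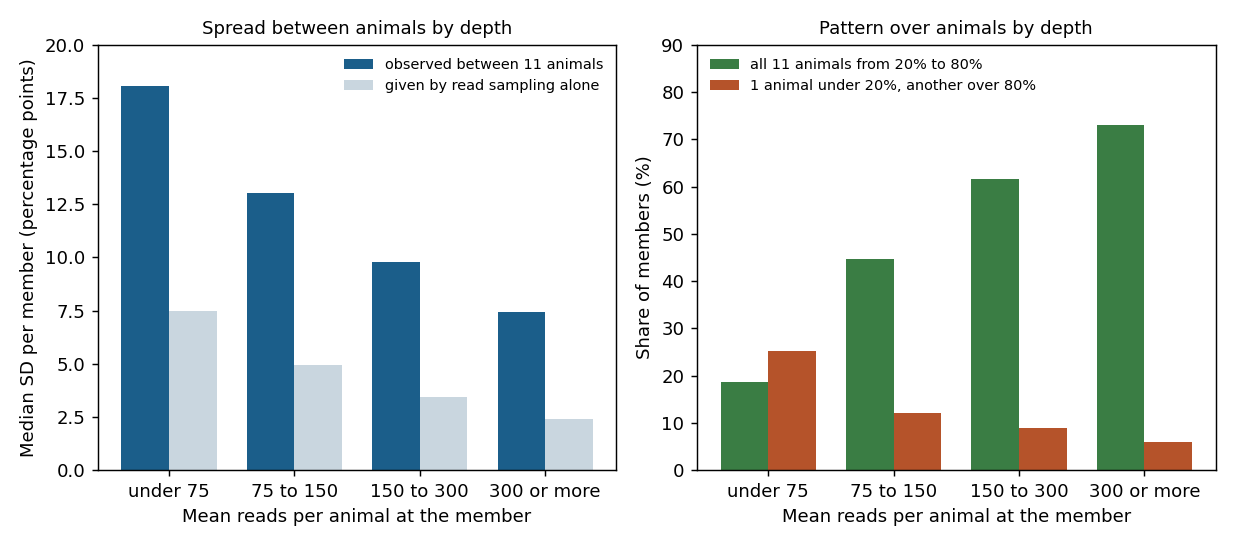
Left, median SD between 11 animals per member (percentage points) as observed and as read sampling alone would give, by mean reads per animal; right, share (%) of members in which all 11 animals lie from 20% to 80% and of members with an animal under 20% and another over 80%. The observed SD falls from 18.1 to 7.43 points with depth and stays above the sampling figure, and the second pattern falls from 25.2% to 5.99%.

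The same pooled level covered different patterns over animals. At 56272 members, 49.0%, all 11 animals lay from 20% to 80%, with a median SD of 9.22 points. At 15212 members, 13.2%, the lowest animal lay under 20% and the highest over 80%, with a median SD of 28.7 points. This pattern is called variant-like here as a name only, since no genotypes were used. Over the variant-like members, 23.4% of the animals' levels lay under 20%, 26.7% from 40% to 60% and 18.9% at 80% or more, with 16.2% and 14.8% in the bands between. The pattern was present at 2.19% of the CpG-poor positions at 60% or more and at 0.785% of those under 20%. A pooled level near either end leaves less room for it, so these shares are partly given by the choice of band. Among dense positions in the band of 20% up to 60% the share was 3.50%. Median depth was 78.0 reads at the variant-like members and 218 at those with all animals from 20% to 80%, and the part of depth in the pattern was not tested.

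Members alone in their run were variant-like more often than members in runs, a difference that was not tested. The share was 24.6% of 46416 members alone, 9.14% in runs of 2, 4.03% in runs of 3 or 4, 3.13% in runs of 5 to 7 and 2.73% in runs of 8 or more. Variant-like members had partners that were variant-like too in 33.9% of cases at 2 to 50 bp and in 15.7% at 100 to 300 bp, and from there to 5000 bp the share lay between 16.4% and 17.8%. Deviations of 2 variant-like members still had a correlation of 0.346 over 298 pairs at 500 to 1000 bp and of 0.236 over 905 pairs at 2000 to 5000 bp. Without variant-like members the overall correlations were 0.467 at 2 to 50 bp and 0.0744 at 500 to 1000 bp.

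The 5 members with the largest SD were picked for that extreme and show the pattern. At position 68205483 of chromosome 9, with at least 226 reads in each animal, 5 animals lay from 91.6% to 97.3%, 5 from 1.0% to 4.2%, and animal 2 of cohort 14 at 49.2%. The levels thus fell into 3 steps with nothing between them. At position 120517688 of the same chromosome 4 animals lay from 81.2% to 98.9% and 7 from 0.7% to 4.1%. The SDs of the 5 members ran from 44.8 to 46.2 points, and the lowest depth among them was 14 reads.

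The level of a whole run varied less between animals than that of its single members, whose median SD was 10.2 points in runs of 5 to 7 and 9.66 in runs of 8 or more. A run level averages over at least 5 members, and averaging by itself lowers the SD and makes extreme levels rarer. The comparison is thus a description and supports nothing. Over the 3117 runs of at least 5 members the median SD was 6.87 points, with a median of 1240 reads per run and animal. These reads are summed over CpGs, so a read that covers several CpGs of a run is counted at each, and no share of the variance is given for read sampling. In 2736 runs, 87.8%, all 11 animals lay from 20% to 80%, and 7 runs were variant-like. The steadiest run held 5 members on chromosome 4 from 137319973 to 137320038, where animals ran from 29.9% through a median of 32.7% to 35.7%, with an SD of 1.92 points. The next held 8 members on chromosome 7 from 47418637 to 47418922, with 32.9% to 38.9%. In both runs all 11 animals held a partial level close to that of the others, and both were picked for their small SD.

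At the other end, whole runs differed between animals. On chromosome 16 from 28361291 to 28361397, 5 members stood at 93.4% in animal 1 of cohort 10 and at 73.9% in animal 3 of cohort 14, while the other 9 animals ranged from 16.9% to 29.9%. On chromosome 14 from 15911552 to 15911818, 7 members had 4 animals from 13.9% to 15.1%, 3 from 38.7% to 43.7% and 4 from 61.9% to 71.5%, with at least 976 reads in each animal. The animals fell into 3 steps over 267 bp in that run. On chromosome 10 from 29018334 to 29018433, 9 members averaged 94.5% in animal 6 of cohort 14, and the others ranged from 9.28% to 49.0%. These runs were picked for the largest SDs, which ran from 22.2 to 25.2 points over 5 runs.

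In runs where animal 6 of cohort 14 departed from the others, animal 5 of that cohort mostly lay to the same side. This pair was singled out after its values were seen. Animal 6 lay at least 10 points from the mean of the other 10 animals in 1398 of 3117 runs, 441 above and 957 below, against 324 to 782 runs in every other animal. In the 441 runs where animal 6 was high, animal 5 lay a mean of 5.16 points above the remaining 9 animals and was above them in 78.2%. In the 957 runs where animal 6 was low, animal 5 lay at -7.66 points and was below in 87.0%. The means of the other 9 animals lay between -2.51 and 2.16 points in the first set and between -2.35 and 3.60 points in the second.

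**Figure D4:**
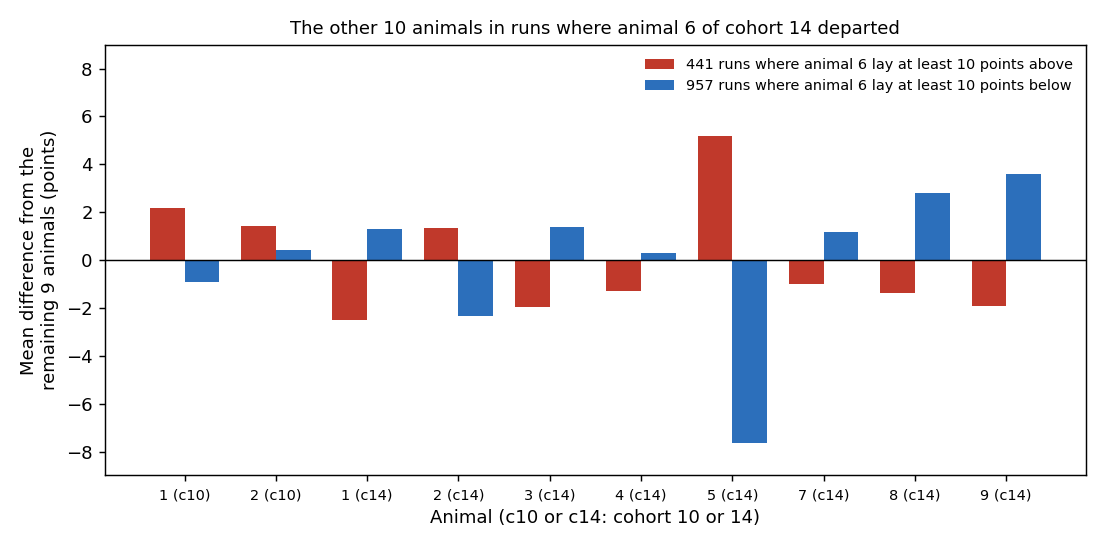
Mean difference (percentage points) of each other animal from the remaining 9 in the 441 runs where animal 6 of cohort 14 lay at least 10 points above the other 10 animals and in the 957 runs where it lay at least 10 points below. Bars carry no error, since runs of a library are not replicates; animal 5 of cohort 14 has the tallest bars, 5.16 and -7.66 points.

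Taken over pairs of animals, both animals of the pair lay at least 10 points from the mean of the remaining 9 in the same direction in 503 runs for animals 5 and 6, 118 above and 385 below, and in opposite directions in 35. Each set covered all 20 chromosomes. For the other pairs of animals, 43 to 174 runs moved the same way and 24 to 224 in opposite ways. The deviations of animals 5 and 6 had a correlation of 0.398 over 3117 runs, and the next highest of the 55 pairs was 0.0978. Deviations sum to 0 in each run and runs share the libraries, so these values are a description. The largest axis of variation between runs took 30.4% of the variance on odd chromosomes and 29.6% on even ones. On that axis animal 6 had a weight of 0.76 from odd chromosomes and 0.78 from even ones, animal 5 had 0.39 and 0.37, and all others lay between -0.29 and 0.07.

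Animals 5 and 6 had intake values of 3.27 and 3.61, the third and the second highest of the 11, and ages of 5.25 and 5.39, the latter the second highest. The part of intake or age in the shared departures was not tested. Library totals, as counts summed over CpGs, were the highest of all in animal 5, 934657900, and 548455296 in animal 6, with median depths of 223 and 128 at the members. The mean level at CpG-poor positions under 20%, where incomplete conversion would show most, was 8.24% in animal 5, the lowest of the 11, and 8.93% in animal 6, within the 8.40% to 9.64% of the other animals. The part of depth or conversion in the shared departures was not tested. Runs of at least 5 CpG-poor positions at 60% or more gave the same leading pair. Weights were 0.81 for animal 6 and 0.33 for animal 5. Animal 8 of cohort 14 had -0.30, of opposite sign and close in size to animal 5. That axis took 19.9% of the variance of 41604 runs. Other classes differed. In runs of CpG-poor positions under 20%, animal 8 of cohort 14 had the weight of largest size, -0.86, against 0.39 for animal 6 and 0.16 for animal 5. In runs of the dense positions at 20% up to 60%, animals 6 and 5 had 0.53 and 0.48 and animal 2 of cohort 14 had 0.39 over all chromosomes, but on even chromosomes animal 2 had 0.70 and animal 6 had 0.03.

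The mean level over all members was 44.5% and 45.4% in the 2 animals of cohort 10. In cohort 14 it was lowest at 41.6% in animal 6 and 42.4% in animal 5, and from 43.6% to 45.4% in the other 7. Over all animals it was 44.2% ± 1.23 (SD, n = 11). Animal 9, with the highest intake value of 4.31, had 45.4%, and animal 4, with the lowest of 1.69, had 44.4%. The slope on intake with cohort as a covariate was -0.11 ± 0.55 points per unit of intake (SE, n = 11), less than its standard error. Its direction rested on single animals, with 0.22 without animal 6 and -0.83 without animal 9 of cohort 14. Since the members were chosen with their level known, no p is given for this mean.

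**Figure D5:**
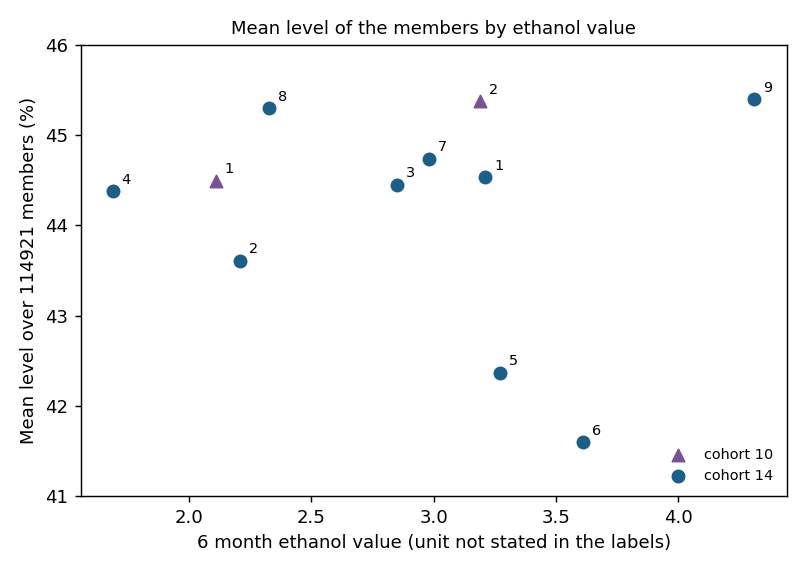
Mean methylation level over the 114921 members (%, axis from 41 to 46) of each animal against its 6 month ethanol value; numbers are the animals within their cohort. Animals 5 and 6 of cohort 14 lie at 42.4% and 41.6%, below the other 9, and animal 9 at the highest ethanol value lies at 45.4%.

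No member passed the test for a relation to intake. Methylated and unmethylated reads of 1874277 positions with a pooled level from 5% to 95% were fitted by logistic regression on intake and cohort, with a dispersion shrunk across positions. Of the members, 0 of 114921 had a Benjamini-Hochberg adjusted p under 0.05, as had 0% of all positions tested. An unadjusted p under 0.05 was reached by 3920 members, 3.41%, beside 2.96% of all positions tested. By direction, 1923 members had a slope above 0 and 1997 below, 1.67% and 1.74% of the members, beside 1.68% and 1.28% of all positions. Slopes above 0 made up 48.4% of the members and 52.3% of all positions tested. Without animal 9 of cohort 14 the 3920 became 6550, with 4031 below 0, and 0 passed. That was 5.70% of the members, beside 4.02% of all positions, which rose as well.

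In limma on logit methylation 0 members passed and 3704 had an unadjusted p under 0.05, 3.22% beside 3.46% of all positions, so the members lay below the general share there and above it in the logistic fit. With intake as 2 classes, below 3 and at or above 3, 1 member passed the same logistic model at a Benjamini-Hochberg adjusted p of 0.0497, beside 0.00048% of all positions tested. The member lay at position 4400683 of chromosome 14 and is named after its values were seen. The 6 animals below 3 had levels from 25.1% to 41.7%, with 34.4% ± 5.67 (SD, n = 6). The 5 at or above 3 had levels from 53.8% to 68.2%, with 62.5% ± 6.38 (SD, n = 5), and the classes did not overlap. An unadjusted p under 0.05 was reached by 7527 members in the fit with 2 classes, 6.55%, beside 4.69% of all positions.

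Precision at a single member was low. The standard error of a member's slope had a median of 5.11 points per unit of intake. The whole 95% interval of the slope reached no further than 10 points per unit from 0 at 20.4% of the members. It reached no further than 20 points at 66.5%. These least-squares intervals hold for each member alone, so they do not give the smallest slope that the adjusted logistic test could detect. A slope of 49.3 points per unit at position 22252132 of chromosome 15 did not pass that test. Neither did a slope of -33.8 at position 148057729 of chromosome 6. Large slopes at single members are thus not excluded.

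Counts were also summed in 500 bp windows on a fixed grid. Of 209518 windows with at least 3 positions and a pooled level from 5% to 95%, 3588 held members only. By the same model and adjustment over all windows, 0 of 3588 passed, as did 0% of all windows. With an unadjusted p under 0.05 there were 74 member windows, 2.06%, beside 2.92% of all windows. Of the 74, 38 had a slope above 0 and 36 below, 1.06% and 1.003% of the member windows, beside 1.72% and 1.2% of all windows. Limma on logit methylation gave 0 past the adjusted threshold and 80 unadjusted, 2.23% beside 3.34% of all windows. Intake as 2 classes gave 0 and 209, the latter 5.82% beside 4.98% of all windows. Without animal 9 of cohort 14 the 74 became 208, with 65 above 0 and 143 below. That was 5.80% of the member windows, beside 5.02% of all windows, which rose as well. The median standard error of a slope was 3.33 points per unit, and the 95% interval reached no further than 10 points from 0 in 52.0% of member windows.

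The members and windows with the smallest p-values show what such data hold without passing. They were taken among those whose slope kept its sign without each animal in turn, 57970 members and 1717 windows. The smallest p among members with a slope above 0 belonged to position 137154300 of chromosome 4, with levels from 1.04% to 87.4%. Its slope was 37.7 ± 6.57 points per unit (SE, n = 11), with an adjusted p that rounded to 1. Animal 2 of cohort 10 and animal 9 of cohort 14 lay at 87.4%, 5 animals from 37.6% to 50.99% and 4 from 1.04% to 5.17%, again in 3 steps. Among members with a slope below 0 the smallest p belonged to position 39022009 of chromosome 8. Levels there ran from 4.93% in animal 9 to 73.2% in animal 4 of cohort 14, and the slope was -25.7 ± 2.65 points per unit. The 5 named members with slopes above 0 had slopes of 13.3 to 49.3 points per unit, and the 5 with slopes below 0 had slopes of -33.8 to -24.6, with adjusted p rounding to 1 for all 10.

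The named windows had smaller slopes than the named members. A window averages at least 3 positions and was picked among fewer features, so smaller slopes are partly given by construction. On chromosome 6 from 110227501 to 110228000, 4 members averaged 36.8% ± 6.66 (SD, n = 6) in the lower intake class and 46.1% ± 10.9 (SD, n = 5) in the upper. The classes overlapped, and the slope was 9.31 ± 1.64 points per unit with an adjusted p that rounded to 1. On chromosome 11 from 113602501 to 113603000, 6 members averaged 52.9% ± 5.88 (SD, n = 6) and 40.6% ± 6.90 (SD, n = 5), without overlap, with a slope of -8.53 ± 2.86 points per unit. The animal lowest there was animal 6 of cohort 14, at 29.8%. The slopes of the 10 windows named by this rule lay between -12.4 and 9.54 points per unit, and the classes did not overlap in 1 of the 10. They were picked for small p-values, so their differences may overstate what other animals would show.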

How the data were processed

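The authors deposited tables of methylated and of total reads at each CpG, as whole-number counts without normalization. The labels' protocols name the Qiagen AllPrep and SureSelect XT Human Methyl-Seq kits, and the submitters' processing notes name FastQC and Bismark, with no version. The genome build is not given in the sources used here. Every count table also held 5 columns that matched no sample and were not used. The lowest methylated and the lowest unmethylated count were 1 and the lowest total was 12, so 1 may have been added to each. Positions are given as listed.

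Members and runs were found by the rules stated with the results. The members, lists and tests were chosen with earlier results of these data known. Each position or window was fitted by quasi-binomial logistic regression on intake and cohort over 11 animals. The dispersion was shrunk by limma's empirical Bayes method, rewritten in Python, and two-sided p-values were adjusted by Benjamini-Hochberg over all features tested at 0.05. Limma's test on logit methylation, written likewise, was an alternative. Both the fit and the neighbour correlation were tested on simulated data. The simulated counts for the fit had the same excess spread at all positions, which were drawn independently, unlike the data. Slopes in points came from least squares. Named were the 10 runs with most members, the 5 runs of at least 5 members with the largest and the 5 with the smallest SD, the 5 members of largest SD, and the 5 members and 5 windows of smallest p in each direction whose slope kept its sign without each animal. Labels do not say more of how animals were sampled, so p-values judge slopes only against the spread between these 11 libraries. Scripts ran under Python 3.11.15. They used numpy 2.4.6 for the fits, pandas 2.3.3 for tables, scipy 1.17.1 for distributions and matplotlib 3.10.9 for plots.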

Additional observations from a re-analysis of the deposited data

Results flagged for a closer look

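Within cohort 14, 50 quantities with a value for each of its 9 animals were examined for a single animal far from its nearest neighbour, and 4 had such an animal. About 1 in 20 would by chance, and the quantities include runs picked for large or small SDs. The run of 5 members on chromosome 16 from 28361291 to 28361397 had 73.9% in animal 3 and 16.9% to 29.9% in the other animals of the cohort. The run of 9 members on chromosome 10 from 29018334 to 29018433 had 94.5% in animal 6 and 9.28% to 49.0% in the others. Animal 6 departed by at least 10 points in 1398 runs of at least 5 members, against 361 to 782 in the others. Its deviations at members 2 to 50 bp apart had a correlation of 0.568, against 0.427 to 0.472.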

How the results depend on the processing

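The count of members related to intake was 0 in 20 of 21 alternatives and that of member windows in 21 of 21, each animal left out in turn included. Leaving out either animal of cohort 10 gave the same counts as cohort 14 alone in these fits. The cohort term takes up the remaining animal of cohort 10, so these alternatives amount to a single fit. The exception among the 21 for members was intake as 2 classes, with 1 member. Members with an unadjusted p under 0.05 then numbered 7527, and member windows 209, against 3920 and 74. Leaving out animal 9 of cohort 14 gave 6550 and 208. Member windows were 126 with ranks of intake, 3.51% beside 3.81% of all windows, and 136 without animals 5 and 6 of cohort 14, 3.79% beside 3.91%, an alternative chosen after seeing the data. The number of members was 39751 at a density under 5, 53448 at 30% up to 50%, 75797 with at least 50 reads in every animal, and 113965 to 115497 without 1 animal. The median SD between animals was 9.59 points with at least 50 reads, 10.3 without animals 3, 6, 7 and 8 of cohort 14, whose levels scattered most, and 11.3 to 12.1 without 1 animal. The correlation at 2 to 50 bp was 0.509 at 30% up to 50%, and that at 500 to 1000 bp was 0.116 with at least 50 reads and 0.0656 without animals 5 and 6. The mean level was 41.2% at 30% up to 50%, a band with another centre. The slope of the mean level was -0.83 to 0.22 points per unit without 1 animal, 0.34 without the 4 libraries and 0.37 without animals 5 and 6. Fewer positions qualify under the stricter rules by construction, and the cause of the other changes was not tested. No paired analysis was possible because each number only names an animal in accession order, and the labels link no animals of different cohorts.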
